A study of Mus musculus with 6 samples.

Results

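The FOS, JUN and EGR transcription factors were examined in primary mouse mesangial cells, the contractile cells that hold the capillaries of the kidney glomerulus. The members were the 10 genes Fos, Fosb, Fosl1, Fosl2, Jun, Junb, Jund, Egr1, Egr2 and Egr3, chosen by gene symbol, and each matched 1 of the 19730 rows of the expression table. The Control group was 3 libraries labelled only as Control, and the TGF-β1 group was 3 libraries of cultures given transforming growth factor beta 1 at 10 ng/ml for 72 h. All cultures were of passage 3 to 6 and grew in high glucose (25.5 mM) with 20% serum, so the Control cells were also under high glucose and serum. The labels name neither the mouse strain nor its age, and nothing states that replicates came from separate animals, so p-values measure the spread between these libraries, which may be technical.

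FOS and JUN proteins pair through leucine zippers to form AP-1, a dimer that binds DNA at TGANTCA and related sites. JUN proteins can pair with each other, whereas FOS proteins need a JUN partner, so the mix of members decides which dimers can form. EGR proteins are zinc finger factors that bind GC-rich sites. Most of these genes are immediate early genes: serum, growth factors and stress switch them on within minutes through kinases and the factors SRF, ELK and CREB, and their mRNA is usually short-lived. In mesangial cells they are known as early responders to mitogens and to high glucose. The TGF-β1 cultures were collected at 72 h, long after such a burst.

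With TGF-β1, Fos and Egr1 were downregulated and Egr2 was upregulated. Fos fell to 29.3% and Egr1 to 38.3% of the Control mean, and Egr2 rose to 267% of it, all 3 without overlap between the groups. Junb depended on the libraries used: it was 390% of Control in replicates 1 and 3, but 15.6% of Control in replicate 2. Jun was higher on average and Fosl2 lower, Jund was nearly level, and none of these passed the test. Fosb, Fosl1 and Egr3 lay below a mean of 1 FPKM (fragments per kilobase of transcript and per M, or mega, mapped fragments).

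Levels were tested with limma on log2(FPKM + 1), with Benjamini-Hochberg adjustment over the 11898 rows that averaged 1 FPKM or more, and an adjusted p under 0.05 was called changed. Of the 10 members 7 passed that filter and were tested, of which 1 was called higher, 2 were called lower and 4 were not called. Over all rows tested, 48.1% were called, 24.5% higher and 23.6% lower, so calls on 3 of 7 members were near the background. The groups did not overlap for 3 of the 7 members and for 59.4% of all rows. The median log2 change was 0.08 over the 7 members and -0.02 over all rows. Of all calls, 50.9% were higher, or 33.8% when each library was rescaled to its protein-coding rows.

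The 6 libraries held an estimated 10.11 to 11.07 M fragments. Both replicate 2 libraries stood apart in genes of high GC content. Over 9826 protein-coding rows, replicate 2 minus the mean of replicates 1 and 3 had a median near 0, but in rows of 65% GC or more the median log2 difference was -0.50 in Control and -0.77 with TGF-β1. Results are therefore also given for replicates 1 and 3 alone, where 35.3% of all rows were called, 18.2% higher and 17.1% lower. The mesangial marker list summed to 1410 to 1700 FPKM in Control and to 5290 to 6210 FPKM with TGF-β1. Of its 8 genes, Acta2 and Tagln (contractile proteins) made up nearly all of this. Pdgfrb (a receptor of mesangial cells and pericytes) went the other way, at 32.0, 39.5 and 41.1 FPKM in Control against 29.3, 29.9 and 28.4 FPKM with TGF-β1, without overlap, and Itga8, Des and Thy1 were at or below 0.55 FPKM in every library. Cspg4 rose from 0.0577, 0.115 and 0.0473 FPKM to 1.36, 0.918 and 1.37 FPKM, and Gata3 overlapped between the groups. The macrophage list (5 of 6 genes in the table) summed to 87.0 to 114 FPKM in Control and 9.03 to 11.3 FPKM with TGF-β1, most of it Cd14. Csf1r fell as well, from 5.9, 7.37 and 5.52 FPKM in Control to 0.476, 0.234 and 0.525 FPKM with TGF-β1. Cd68 overlapped between the groups, Itgam was at or below 0.359 FPKM and Ptprc was at or below 0.0448 FPKM. The tubular list (3 of 6 in the table) summed to 114 to 146 FPKM in Control and 5.87 to 6.98 FPKM with TGF-β1, nearly all of it Cdh16, with Cdh1 at or below 0.123 FPKM. The podocyte list of 5 genes summed to 19.7 to 24.9 FPKM and 12.6 to 13.7 FPKM, with Nphs1 at or below 0.398 FPKM, and no endothelial list sum of 5 genes exceeded 0.822 FPKM. These lists moved with the same contrast as Fos and Egr1, and their part in the members' changes was not tested. In such bulk RNA, fewer cells of a type and less RNA per cell cannot be told apart.

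RefSeq promoter windows (GRCm38.p6, 250 bases before to 50 after a gene start) were matched for 7 of the 10 members, and Fosl1, Egr1 and Egr3 had no window. The motifs were searched on both strands over 32851 windows of the same length. The CArG box bound by SRF (a run of A or T between CC and GG) was held by 1.63% of all windows and, among the members, by windows of Egr2. Egr2 had 5 of the 11 member windows and Egr1 had none. Bases further than 250 before a start were not searched, so a CArG box of Fos or another member there would be missed. The CREB core letters TGACG was held by 20.8% of all windows and by windows of Egr2, Fos, Fosb and Junb, and the TATA box letters TATAAA by 13.6% and by Fos and Junb. The EGR site GCGNGGGCG was held by 5.55% of all windows and by Fosb and Fosl2, and the AP-1 site TGANTCA by 7.81% and by none of the 7. The sequences below show, in capitals, some of the letters that match SRF and CREB sites in genes whose values differed between the groups or libraries, and the EGR letters in both FOS genes that hold them. A match is a description of the letters and not a bound site.
Egr2, CArG box, chr10:67537787-67537816, plus strand: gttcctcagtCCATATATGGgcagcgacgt
Egr2, CArG box in a window further upstream, chr10:67537484-67537513, plus strand: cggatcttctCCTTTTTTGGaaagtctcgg
Fos, TGACG, chr12:85473812-85473841, plus strand: agttccgcccagTGACGtaggaagtccatc
Junb, TGACG, chr8:84978837-84978866, minus strand: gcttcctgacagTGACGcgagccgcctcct
Fosb, GCGNGGGCG, chr7:19310076-19310105, minus strand: tgacgcaagcGCGGGGGCGggtcccggagg
Fosl2, GCGNGGGCG, chr5:32136383-32136412, plus strand: ccggctgcgcGCGGGGGCGgaagggcgcgc
In the first Egr2 window the CArG box began 72 bases before the gene start, and in Fos and Junb the printed TGACG letters began 66 and 106 bases before it. Fos held TGACG also at 129 bases, and the first Egr2 window held it at 111 and 55 bases. These matches are not printed. Egr2 and Fos, which held TGACG in common, were called in opposite directions, and the part of these letters in either change was not tested.

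On mm9, Fos lies at chr12:86814840-86818223, Fosb at chr7:19888070-19895394, Fosl1 at chr19:5447703-5455945 and Fosl2 at chr5:32438845-32460204. Jun lies at chr4:94715725-94718913, Junb at chr8:87500811-87502617 and Jund at chr8:73221638-73224515. Egr1 lies at chr18:35020861-35024638, Egr2 at chr10:66998223-67004936 and Egr3 at chr14:70477252-70479964. The transcripts named in the rows of Jun, Junb and Jund have a single exon, as do 3.04% of the 9826 protein-coding rows. Some share bases with a gene on the other strand: Jun with BC042782, Jund with Gm11175, Egr1 with Gm17507 and Fosl1 with Ccdc85b. Whether strand was used in the FPKM estimates is not stated, so the reads of each pair cannot be told apart.

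Fos encodes the partner that gives AP-1 dimers with JUN their strong transactivation, and it is the classic immediate early gene. Fos stood at 6.25, 5.50 and 4.05 FPKM in Control replicates 1 to 3 and at 1.41, 1.62 and 1.60 FPKM with TGF-β1. Every TGF-β1 library was below every Control library. The mean fell from 5.27 ± 1.12 to 1.54 ± 0.117 FPKM (SD, n = 3 each), which is -1.29 on the log2 scale, with an SE of 0.154 (limma adjusted p = 0.000984). The change was -1.27 in replicates 1 and 3 alone (limma adjusted p = 0.0193), and 9.49% of all rows tested had a larger change in either direction. Replicate 2 was close to the other replicates for this gene, with deviations of 0.10 and 0.07 on the log2 scale in Control and TGF-β1.

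Fosl2 (Fra-2) is a FOS member without the strong transactivation domain, and it carried most of the FOS family signal. It stood at 13.5, 12.0 and 14.6 FPKM in Control and at 12.1, 10.9 and 11.9 FPKM with TGF-β1. The groups overlapped only in that the highest TGF-β1 library just exceeded the lowest Control library. The log2 change of -0.18 (SE 0.0967) did not pass the test (limma adjusted p = 0.174). It passed when libraries were rescaled to their protein-coding rows, at -0.36 (limma adjusted p = 0.0259).

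Fosb, which is induced by strong or repeated stimuli, and Fosl1 (Fra-1), which lacks the strong transactivation domain like Fosl2, were barely expressed. Fosb stood at 0.306, 0.255 and 0.366 FPKM in Control and at 0.257, 0.417 and 0.312 FPKM with TGF-β1, which corresponds to 10 to 15 fragments per library. Both groups covered about the same range. Fosl1 stood at 0.120, 0.0600 and 0.0615 FPKM in Control, or 1 to 2 fragments, and at 0.544 and 0.796 FPKM in TGF-β1 replicates 1 and 3, or 9 and 13 fragments. TGF-β1 replicate 2 listed it at 0, and 3 fragments there, the limit that a count of 0 allows, would give 0.197 FPKM. Replicates 1 and 3 with TGF-β1 were above all Control libraries, but replicate 2 with TGF-β1 was listed below them, so the groups overlapped. Without the filter, the log2 change of Fosl1 was 0.38 (limma adjusted p = 0.243) in all 6 libraries and 0.61 (limma adjusted p = 0.0503) in replicates 1 and 3. That of Fosb was 0.02 (limma adjusted p = 0.848).

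The summed FOS family level was 19.0 ± 1.20 FPKM in Control and 14.0 ± 0.866 FPKM with TGF-β1 (SD, n = 3 each). The Fos share of that sum was 31.0, 30.9 and 21.3% in the Control libraries, against 9.81, 12.5 and 10.9% with TGF-β1, while the Fosl2 share was 66.9, 67.3 and 76.5% against 84.6, 84.3 and 81.5%. Neither share overlapped between the groups. These shares were not tested apart from the genes themselves, and they are of mRNA per length and not of protein.

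Jun encodes c-Jun, the main transactivating JUN protein, which is phosphorylated by JNK kinases. It stood at 12.5, 8.12 and 17.4 FPKM in Control and at 22.8, 13.8 and 24.9 FPKM with TGF-β1. The replicate 2 library was the lowest of each group, and the groups overlapped through it. The mean went from 12.7 ± 4.63 to 20.5 ± 5.90 FPKM, and the log2 change of 0.67 (SE 0.315) did not pass the test (limma adjusted p = 0.127). It was 0.65 in replicates 1 and 3 alone (limma adjusted p = 0.0589), and the replicate 2 value with TGF-β1 was 170% of that in Control. With a term for the replicate 2 libraries, the same change of 0.67 passed (limma adjusted p = 0.0104).

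Junb encodes a JUN protein that restrains c-Jun in some settings and is a known early TGF-β response gene. It stood at 36.9, 7.88 and 27.4 FPKM in Control and at 125, 1.23 and 125 FPKM with TGF-β1. Replicates 1 and 3 rose with TGF-β1 well beyond their spread, and replicate 2 went the other way. In all 6 libraries the log2 change was 0.63 (SE 1.63, limma adjusted p = 0.773). In replicates 1 and 3 alone it was 1.95 (SE 0.165, limma adjusted p = 0.00484), and without TGF-β1 replicate 2 only it was 2.57 (limma adjusted p = 0.026). Without TGF-β1 replicate 1 or replicate 3 it was -0.34. In fragments, the row went from about 656, 140 and 474 in Control to about 2208, 20 and 2180 with TGF-β1, so the value of 1.23 FPKM rests on 20 fragments.

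Jund encodes the JUN protein that is made steadily in resting cells. It stood at 100, 41.7 and 80.0 FPKM in Control and at 98.9, 41.5 and 96.7 FPKM with TGF-β1. The groups had almost the same range, with replicate 2 the lowest in both. The log2 change was 0.08 (SE 0.444, limma adjusted p = 0.894) in all 6 libraries and 0.13 (limma adjusted p = 0.495) in replicates 1 and 3 alone. The sign of this small change turned under some scalings of the libraries, to between -0.11 and -0.02.

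The JUN family sum was 149, 57.7 and 125 FPKM in Control and 247, 56.5 and 247 FPKM with TGF-β1. Junb was 24.7, 13.7 and 21.9% of it in the Control libraries, against 50.7, 2.18 and 50.8% with TGF-β1. In TGF-β1 replicates 1 and 3 Junb thus exceeded Jund, and in TGF-β1 replicate 2 it was the lowest of the 3 genes. The plot of family shares shows this beside the FOS and EGR families.

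**Figure D1:**
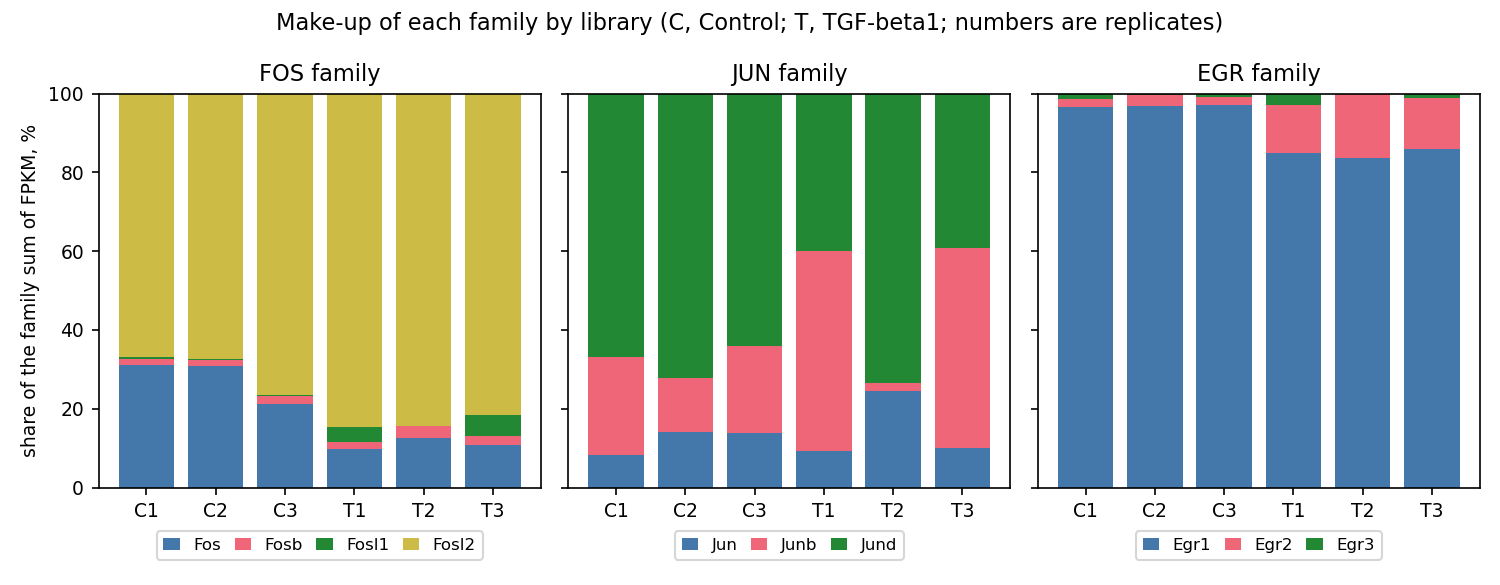
Share of each gene in its family's summed FPKM (y axis, %) in each of the 6 libraries (x axis, C for Control, T for TGF-β1), stacked to 100%. The Fos share was 21.3 to 31.0% in Control and 9.81 to 12.5% with TGF-β1, the Junb share was near 50.7% in T1 and T3 but 2.18% in T2, and the Egr2 share was 2.02 to 2.60% in Control and 12.2 to 16.3% with TGF-β1.

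Egr1 encodes a zinc finger activator of growth factor and matrix genes, induced by serum and injury. It stood at 42.7, 39.9 and 56.9 FPKM in Control and at 19.3, 15.3 and 18.8 FPKM with TGF-β1. Every TGF-β1 library was below every Control library, by a wide gap. The mean fell from 46.5 ± 9.13 to 17.8 ± 2.22 FPKM, which is -1.33 on the log2 scale, with an SE of 0.160 (limma adjusted p = 0.00102). It was also -1.33 in replicates 1 and 3 alone (limma adjusted p = 0.00965), and 8.78% of all rows tested changed more.

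Egr2 (Krox20) encodes a related zinc finger factor, known for hindbrain and Schwann cell development and as a fibroblast response to TGF-β. It stood at 0.895, 1.07 and 1.24 FPKM in Control and at 2.77, 2.96 and 2.83 FPKM with TGF-β1. Every TGF-β1 library was above every Control library, and the TGF-β1 libraries were nearly alike. The mean rose from 1.07 ± 0.175 to 2.86 ± 0.0965 FPKM, which is 0.90 on the log2 scale, with an SE of 0.114 (limma adjusted p = 0.00125), and it was 0.88 in replicates 1 and 3 alone (limma adjusted p = 0.0162). The row names a transcript of 773 nt, whereas the gene has 8 annotated transcripts and its longest coding one has 2965 nt. With the 773 nt length the values would correspond to 5.7 to 7.7 fragments in Control and 17.2 to 17.6 with TGF-β1. It is not stated whether the row holds the gene or only that transcript. At so few fragments, counting noise alone would usually spread the values more than the TGF-β1 libraries differ. Their closeness is therefore no measure of precision, and the SE and adjusted p draw in part on it.

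Egr3, a close relative of Egr2, stood at 0.595, 0.223 and 0.457 FPKM in Control and at 0.684 and 0.260 FPKM in TGF-β1 replicates 1 and 3, whereas TGF-β1 replicate 2 listed it at 0. The groups overlapped, and without the filter the log2 change was -0.14 (limma adjusted p = 0.646). The EGR family sum was 48.0 ± 9.32 FPKM in Control and 21.0 ± 2.42 FPKM with TGF-β1 (SD, n = 3 each). Egr1 was 96.9 ± 0.234% of the sum in Control and 84.8 ± 1.08% with TGF-β1, and Egr2 was 2.25 ± 0.308% and 13.8 ± 2.18%. Egr1 thus remained the most abundant EGR mRNA in every library.

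**Figure D2:**
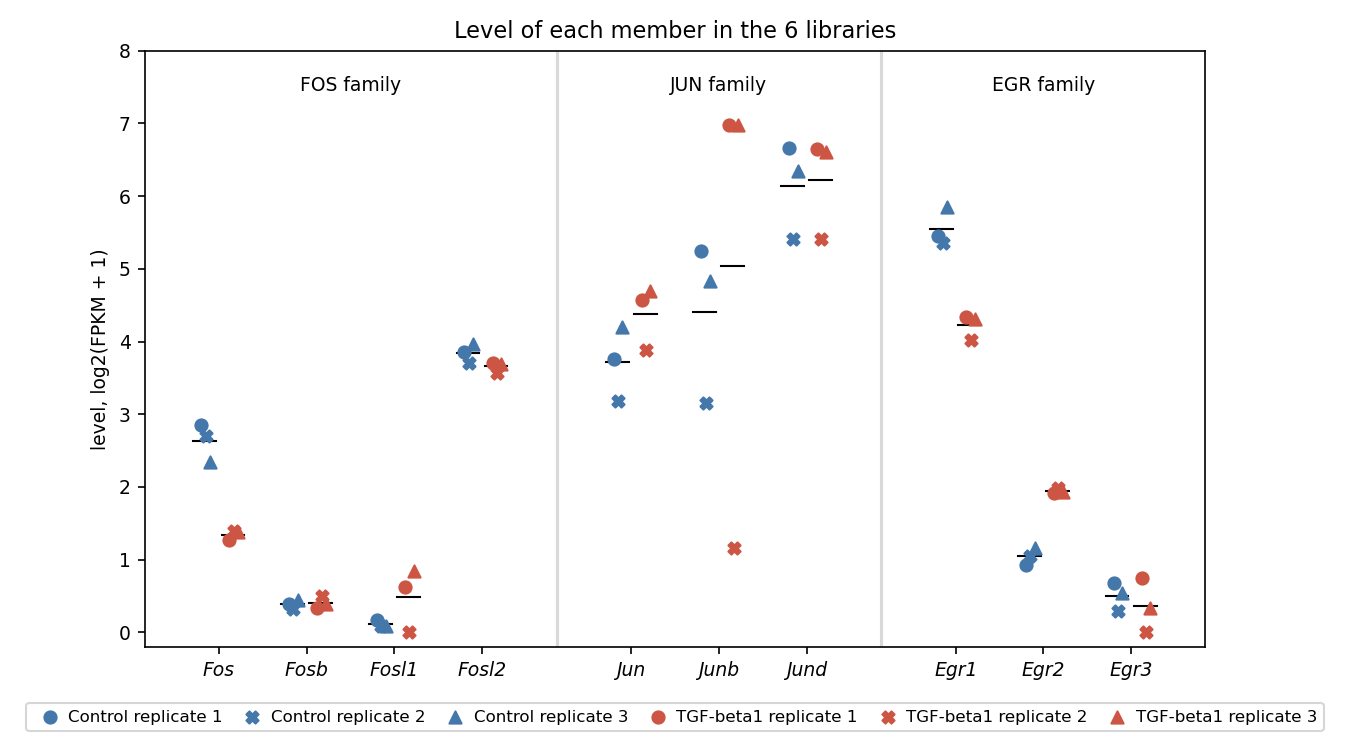
Level of each member as log2(FPKM + 1) (y axis) in the Control (blue) and TGF-β1 (red) libraries, with a symbol for each replicate number and a bar at the group mean. Fos and Egr1 lie lower and Egr2 higher in all 3 TGF-β1 libraries, and the replicate 2 crosses lie lowest for Jun, Junb and Jund.

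In Control cells, the order of mean levels was Jund (73.9 FPKM), Egr1, Junb, Fosl2, Jun, Fos, Egr2, Egr3, Fosb and Fosl1 (0.0804 FPKM). The ranges of Junb and Fosl2, Fosl2 and Jun, and Egr3 and Fosb overlapped, so the order within these neighbours was not resolved. Those of Jund and Egr1 overlapped too, but Jund was above Egr1 within every Control library. With TGF-β1 the order was Junb (83.9 ± 71.6 FPKM), Jund, Jun, Egr1, Fosl2, Egr2, Fos, Fosl1, Fosb and Egr3. Overlapping neighbours were Junb and Jund, Jun and Egr1, Fosl1 and Fosb, and Fosb and Egr3. In FPKM, Fos went from above Egr2 in every Control library to below Egr2 in every TGF-β1 library. In estimated fragments Fos stayed above Egr2 with TGF-β1, at 29.5, 31.3 and 33.0 against 17.5, 17.2 and 17.6 with the 773 nt length for Egr2. It is not stated whether the Egr2 row holds the gene or only that transcript, so the place of Egr2 in both orders is not settled. Egr1 went from above Jun in every Control library to a range that overlapped it.

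**Figure D3:**
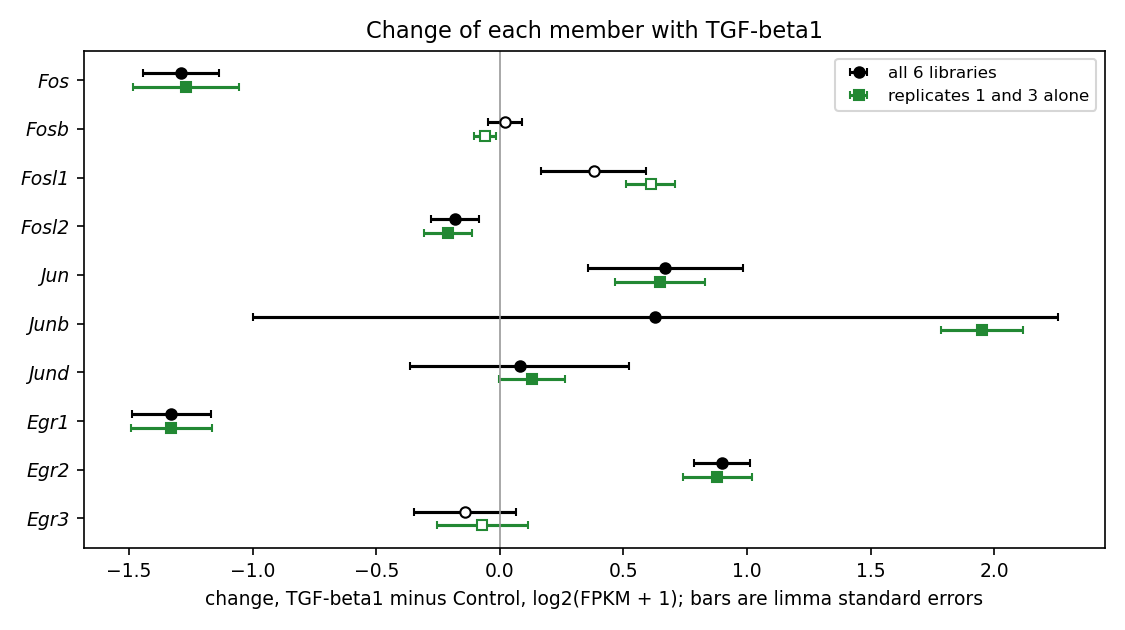
Log2 change of each member, TGF-β1 minus Control on log2(FPKM + 1) (x axis), in all 6 libraries (black circles) and in replicates 1 and 3 alone (green squares), with limma standard errors as bars and open symbols for the 3 members under the filter. The symbols nearly coincide for Fos (-1.29 and -1.27), Egr1 and Egr2, and lie far apart for Junb (0.63 and 1.95).

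The replicate 2 libraries touched the members unequally. On the log2 scale, replicate 2 minus the mean of replicates 1 and 3 was -1.88 in Control and -5.82 with TGF-β1 for Junb. It was -1.08 and -1.22 for Jund, and -0.79 and -0.75 for Jun. For Egr1 it was -0.30 in both groups, for Fosl2 -0.21 and -0.12, and for Egr2 0.01 and 0.06. All 3 single-exon JUN genes were thus low in replicate 2, and among the 9826 protein-coding rows only 14 in Control and 1 with TGF-β1 lay lower than Junb. That 1 row was Gm11175, the gene that overlaps Jund on the other strand, at 149, 1.56 and 104 FPKM in Control and 167, 0.29 and 169 FPKM with TGF-β1; it was looked up after its values were seen. Junb and the 773 nt transcript named for Egr2 have a like GC content, 62.6 and 61.7%, but the Egr2 value of replicate 2 did not stand apart. If the Egr2 row holds the whole gene, which is not stated, its GC content may differ from 61.7%. In the 468 rows of 60 to 65% GC, the median deviation was -0.14 in Control and -0.39 with TGF-β1. Over all 299 single-exon rows it was only -0.07 and -0.05. At 60% GC or more it was -0.28 and -0.61 in 38 single-exon rows, and -0.15 and -0.4 in 480 rows with several exons. Jun, with 55.5% GC, lay outside the 10th to 90th percentile band of its GC class in both groups. Whether GC content, exon number or another property set these values was not tested.

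**Figure D4:**
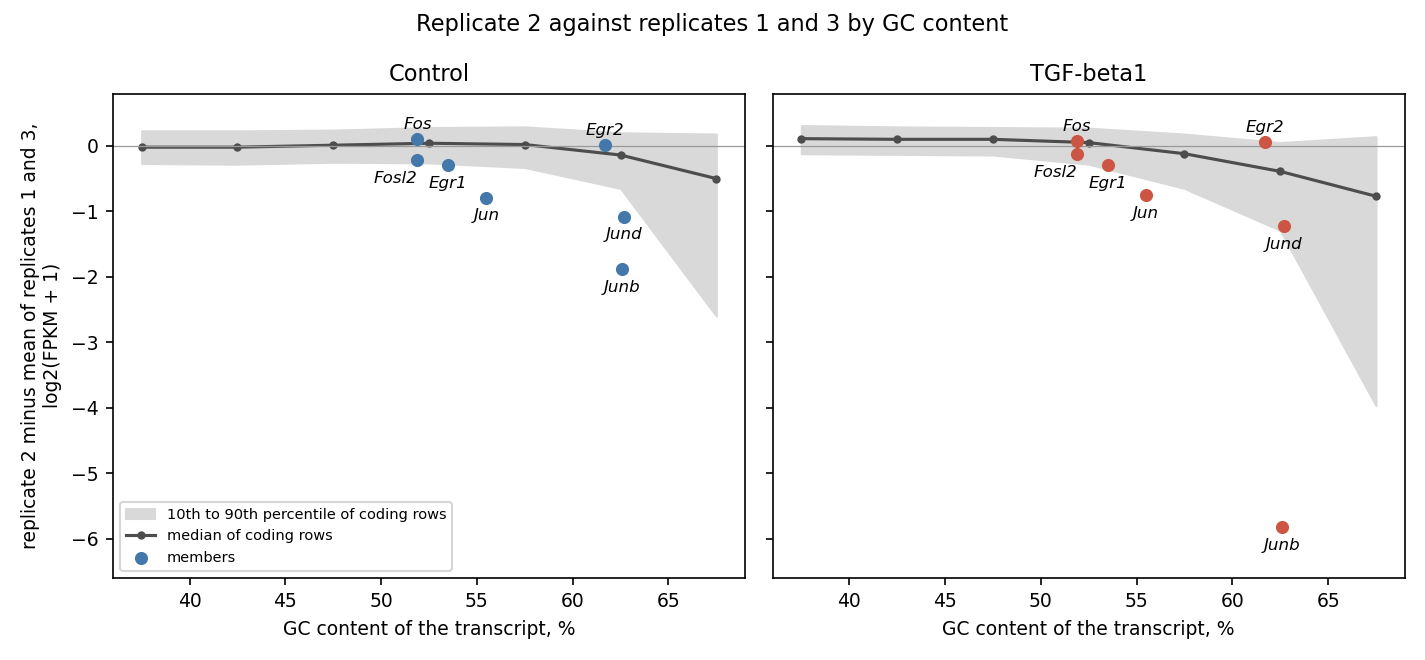
Replicate 2 minus the mean of replicates 1 and 3 on log2(FPKM + 1) (y axis) against transcript GC content in % (x axis) for the 7 members tested, in Control (left) and TGF-β1 (right), with the median and the 10th to 90th percentile of 9826 protein-coding rows by GC class. Junb lies far below the band, at -1.88 and -5.82, while Egr2, placed at the GC content of its named 773 nt transcript, lies near 0.

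Genes whose pattern over the 6 libraries was most like that of a called member were taken by the smallest root mean square difference of row-centred log2(FPKM + 1) among the tested rows. For Fos they were Vsig10, Ctdsp1 and Caprin2, with differences of 0.0665 to 0.0875. For Egr1 they were S100a7a, Dzip1 and Reck (0.083 to 0.0972), and for Egr2 Arhgef5, Nomo1 and Cldn12 (0.0326 to 0.0422). Ctdsp1, a phosphatase of RNA polymerase II, stood at 112, 109 and 91.5 FPKM in Control and 41.8, 42.2 and 43.5 FPKM with TGF-β1, and Reck, an inhibitor of matrix metalloproteinases, at 5.24, 5.05 and 7.17 FPKM and 1.96, 1.59 and 2.38 FPKM. This likeness is a description over 6 libraries, in which the group difference dominates.

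Other immediate early genes did not share the fall of Fos and Egr1. Of 18 listed genes 17 were tested, 13 were called higher and none lower, with a median log2 change of 1.11, beside 24.5% of all rows higher and a median of -0.02. Myc, a regulator of growth, rose the most, from 7.75, 6.77 and 7.94 FPKM to 34.4, 32.9 and 39.5 FPKM (log2 change 2.11, limma adjusted p = 3.53e-05). Dusp1, a phosphatase that switches off MAP kinases, rose from 22.6, 23.7 and 29.2 FPKM to 51.6, 60.2 and 53.5 FPKM (log2 change 1.10). Arc, counted among the 13, averaged 0.751 FPKM in Control and 2.66 FPKM with TGF-β1, so it passed the filter only through the group in which it was high. Those not called were Zfp36, Nr4a1, Nr4a2 and Ier2. The count was also 13 higher and 0 lower in replicates 1 and 3 alone, but not over the same genes: Klf6 was no longer called (log2 change 0.33, limma adjusted p = 0.0958) and Ier2 was called (0.69, limma adjusted p = 0.016). Arc, Nr4a1, Nr4a2, Ier2 and Klf6 were named after their values were seen. In replicates 1 and 3 Junb joined Egr2 among the members called higher.

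The other AP-1 dimer partners went both ways. Of 9 tested rows from 8 genes, 4 were called higher and 3 lower, with a median log2 change of 0.04. The shares over all rows tested were 24.5% higher and 23.6% lower. Maff, a small MAF protein without a transactivation domain, rose from 6.98, 5.25 and 6.41 FPKM to 10.8, 11.8 and 10.5 FPKM (log2 change 0.74), and Atf3, a stress-induced partner of JUN, rose from a mean of 1.64 to 3.31 FPKM (log2 change 0.71, limma adjusted p = 0.00747). Without replicate 2, Atf3 did not pass (0.58, limma adjusted p = 0.0565). Maf, a large MAF protein with such a domain, fell from 75.4, 71.6 and 80.4 FPKM to 24.7, 26.4 and 24.6 FPKM (log2 change -1.55, limma adjusted p = 3.78e-05).

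Among the other genes around the EGR factors, 3 were tested and 2 were called lower, with a median log2 change of -0.64. The share called lower over all rows tested was 23.6%. Nab2, a corepressor that EGR factors induce and that binds them, fell from 33.2, 37.8 and 43.0 FPKM to 25.2, 22.2 and 24.1 FPKM (log2 change -0.64, limma adjusted p = 0.00448), in the direction of Egr1. Wt1, a zinc finger factor that binds similar sites, fell from 5.88, 7.88 and 9.88 FPKM to 4.05, 3.61 and 4.35 FPKM (log2 change -0.80). Only Nab2 passed in replicates 1 and 3 alone (limma adjusted p = 0.0483), and Wt1 did not (limma adjusted p = 0.0944).

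Of 16 kinases and factors upstream, 7 were called higher and 2 lower, with a median log2 change of 0.07. Over all rows tested, 48.1% were called, 24.5% higher and 23.6% lower, with a median of -0.02. Map2k1, the kinase that activates ERK, rose from 27.3, 22.6 and 19.7 FPKM to 59.5, 64.6 and 59.8 FPKM (log2 change 1.38), and Map2k7, which activates JNK, fell from 36.3, 39.9 and 38.5 FPKM to 25.5, 24.4 and 24.3 FPKM (-0.61). Srf, which drives Fos, Egr1 and Egr2 through CArG boxes, rose from 11.3 ± 1.53 to 16.9 ± 2.97 FPKM (SD, n = 3 each, log2 change 0.54, limma adjusted p = 0.0298). Kinase activity is not measured by these levels. Of 6 factors that govern the decay of short-lived mRNA, 1 was higher and 2 lower, with a median of -0.32, beside the same shares of all rows. Elavl1, which stabilizes such mRNA, rose (0.64), and Zfp36l1, which promotes its decay, fell from 92.6, 78.9 and 91.8 FPKM to 34.4, 26.8 and 31.3 FPKM (-1.48). Zfp36, which has the same role, had a log2 change of -0.25 (limma adjusted p = 0.316).

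Known targets of both families were mostly higher. Of 16 listed AP-1 targets, 9 were tested, of which 7 were called higher and 2 lower, with a median log2 change of 1.46. Ccl2, a monocyte chemokine, fell from 23.4, 19.8 and 19.1 FPKM to 3.71, 3.88 and 5.82 FPKM (log2 change -2.01). Of 12 listed EGR targets, 11 were tested, of which 8 were called higher and 2 lower, with a median of 1.24. Beside both target lists, 24.5% of all rows tested were called higher and 23.6% lower. F3, tissue factor, fell from 10.8, 7.18 and 12.9 FPKM to 5.76, 5.25 and 5.78 FPKM (log2 change -0.75). Nab2, given above, was the other target called lower. Many of these targets answer to other factors too, and binding of AP-1 or EGR was not measured.

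**Figure D5:**
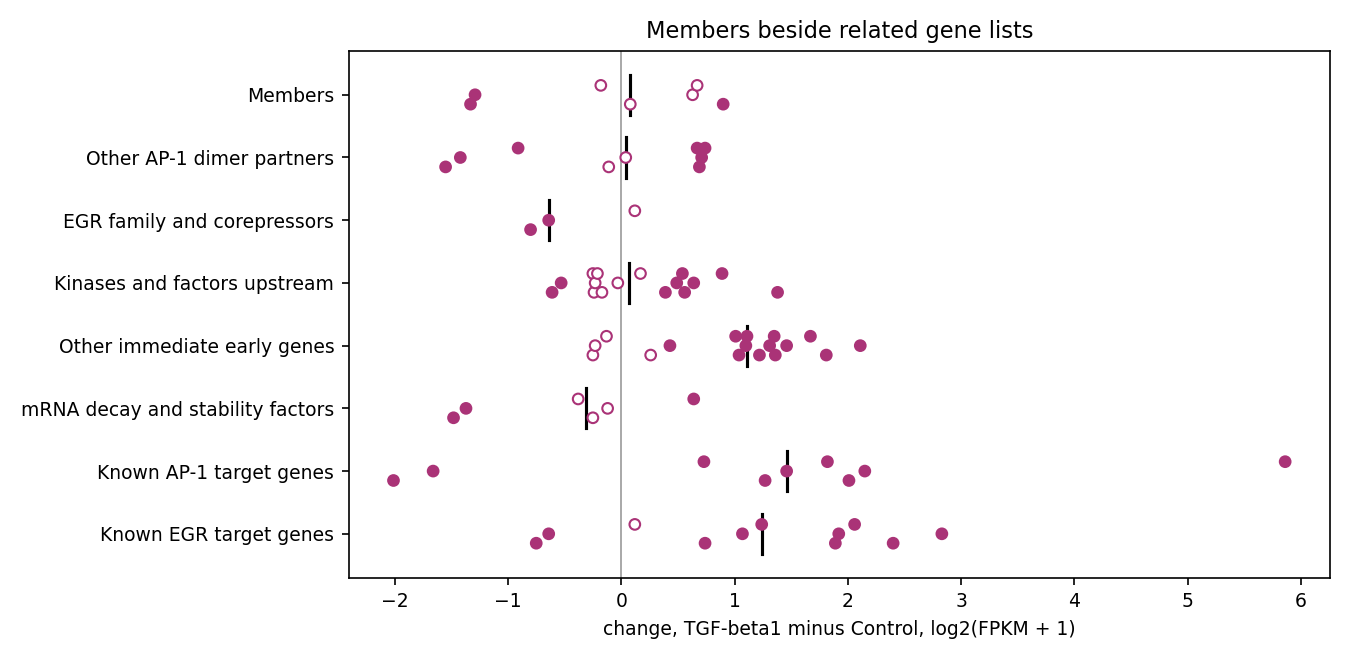
Log2 change, TGF-β1 minus Control on log2(FPKM + 1) (x axis), of the tested members and of the tested rows of each related gene list, with filled points for rows called changed, open points for rows not called and a black bar at the list median. Fos and Egr1 stand at the left of zero near -1.29 and -1.33, whereas no other immediate early gene was called lower and 13 were called higher.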

How the data were processed

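RNA was sequenced from 3 Control and 3 TGF-β1 cultures, grouped by their labels. The authors mapped reads to mm9 with TopHat (version 2.0.11 in the submitters' processing notes) and deposited FPKM per library, estimated with Cufflinks. They tested with a count model (DESeq), which was not possible on FPKM. Rows were joined to the mm9 annotation (GENCODE M1) by transcript identifier.

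The test was limma 3.58.1 in R 4.3.3 (eBayes with trend, two-sided) on log2(FPKM + 1), which understates changes of low genes. It was checked on simulated data with independent noise and few changed rows. That check did not cover a shift shared by the replicate 2 libraries or changes in as many rows as here. Members under the filter were read from the same fit without a filter. Fragments were estimated from the steps of low FPKM values with an assumed fragment length of 200 nt, so they are approximate. The members and gene lists were chosen with earlier results of these data known. Named genes were the members, the largest called increase and decrease of each list, Nab2, Zfp36, Srf, Atf3 and Dusp1, and the 3 rows nearest to each called member. Some genes that this rule selects are not reported here. Alternatives were other scalings, filters and pseudocounts, and fits without single libraries.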

Additional observations from a re-analysis of the deposited data

How the results depend on the processing

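Fos and Egr1 were called lower in all 17 alternatives, with log2 changes of -1.69 to -1.11 and -1.52 to -1.18, and Egr2 was called higher in the 16 that tested it (0.78 to 1.35). The number of members called higher, 1 as reported, was 0 with a mean FPKM of at least 3, a filter that Egr2 misses. It was 2 with a term for the replicate 2 libraries (Jun) and 2 in replicates 1 and 3 alone (Junb), and it ranged from 1 to 2 when single libraries were left out (2 without TGF-β1 replicate 2). With the replicate block it was 2, Jun being added (limma adjusted p = 0.00815), and with the replicate block and the GC trend removed it was 3, Jund being added as well (0.35, limma adjusted p = 0.0301). Same-numbered libraries deviated together with r of 0.0921, 0.232 and 0.0853, against -0.194 to 0.117 between differently numbered ones. These r were low, and the numbers were not taken to pair the samples in the main test. A shift shared by both replicate 2 libraries, as for Jun, therefore counted as spread there. Signs turned for members that were not called: Fosb was -0.06 in replicates 1 and 3 alone, Junb ranged from -0.34 to 2.57 and Jund from -0.28 to 0.49 when single libraries were left out, and Jund was -0.02 with median-of-ratios scaling, -0.07 with quantile normalization and -0.11 with rescaling to protein-coding rows. The median change of all rows was -0.11 and -0.19 under the first and last of these, against -0.02. The number of EGR-related genes called lower was 1 in replicates 1 and 3 alone, against 2. Depth limits Fosb, Fosl1 and Egr3, which rest on 15 fragments or fewer per library, and Egr2, which with its named transcript's length rests on 5.7 to 7.7 fragments in Control and 17.2 to 17.6 with TGF-β1.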
